A study of Mus musculus with 10 samples.

Results

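In-frame and out-of-frame joins of the mouse locus for the kappa light chain of immunoglobulins (Igk) were compared with each other within the 5 rsCBE samples of a series of 10 samples. Each sample held transcripts of small pre-B cells, a bone marrow stage that rearranges its light chain genes, from C57Bl6 mice aged 6 to 12 weeks. The other 5 samples were WT and are used only to set the class difference beside that of another genotype. The design text of the series writes rsCBE with a delta before it, the labels do not spell the name out, and neither says how many animals went into a sample. The replicates may therefore differ only technically, and p-values measure the spread between these samples. The labelled cell type and genotype could not be checked against markers, because only Igk joins were counted. A join was called in-frame where the CDR3, the joint of the V and the J segment, had a length that was a multiple of 3 bases and held no stop. It was called out-of-frame where that length was not a multiple of 3. Of 91536 counts in rsCBE (161780 in the whole series), 60252 were in-frame and 30413 out-of-frame. The 871 counts in-frame by length but with a stop belonged to neither class.

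The kappa locus is assembled by the RAG recombinase, which cuts beside a V and a J segment so that they can be joined. Bases are trimmed from both ends, and some are added, before ligation, which sets the reading frame of the join. An in-frame join can give a light chain that is tested with the heavy chain in a receptor, whereas an out-of-frame join cannot give a light chain. A join on an allele can be replaced by joining an upstream V segment to a downstream J segment, a process known as receptor editing. Comparing the classes therefore sets joins whose protein can be selected beside joins whose protein cannot.

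The joints differed between the classes in a few recurring sequences, which are shown here for 4 V-J pairs. Igkv16-104 with J1 and Igkv5-43 with J5 are among the pairs that differed most between the classes, and Igkv8-16 with J5 and with J1 are the most used pairs after Igkv1-135 with J1. These 4 were chosen after their values were seen. For each pair, the CDR3 with the highest mean share in each class is given, with the bases that match the germline start of the J segment in capitals.
Igkv16-104 J1, in-frame: caacagcataatgaatacccGTGGACG
Igkv16-104 J1, out-of-frame: caacagcataatgaatacccgtacGGACG
Igkv5-43 J5, in-frame: caacagagtaacagctggccGCTCACG
Igkv5-43 J5, out-of-frame: caacagagtaacagctggcctcaTCACG
Igkv8-16 J5, in-frame: cagcagcatttacacattccGCTCACG
Igkv8-16 J5, out-of-frame: cagcagcatttacacattcCTCACG
Igkv8-16 J1, in-frame: cagcagcatttacacattccGTGGACG
Igkv8-16 J1, out-of-frame: cagcagcatttacacattccTGGACG
The in-frame joint of Igkv16-104 with J1 held 88.3% ± 3.56 (SD, n = 5) of the in-frame counts of that pair. Its out-of-frame counterpart was seen in 3 of 5 samples with 10 counts in all and held 13.8% ± 18.8 of the pair's out-of-frame counts, from 0 to 45.5%. For Igkv5-43 with J5, the in-frame joint held 25.0% ± 6.96 of the pair's in-frame counts and the out-of-frame joint 32.5% ± 6.10 of its out-of-frame counts. For Igkv8-16 with J5 the shares were 66.8% ± 3.18 and 37.7% ± 1.04, and for Igkv8-16 with J1 they were 44.5% ± 1.53 and 24.9% ± 3.82. The leading joint held a larger share in-frame than out-of-frame in 3 of these 4 pairs, all but Igkv5-43 with J5.

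For orientation, the germline part of the CDR3 read from the annotated transcripts of the 3 V segments is given next, up to the end of the coding segment.
Igkv16-104 germline end: caacagcataatgaatacccgtac
Igkv5-43 germline end: caacagagtaacagctggcctca
Igkv8-16 germline end: cagcagcatttacacattcctcc
The germline J segments contribute gtggacg (J1), tgtacacg (J2), aatcaca (J3), attcacg (J4) and gctcacg (J5) to the CDR3. All in-frame joints shown are 27 bases long, the length of 75.8% ± 1.50 (SD, n = 5) of all in-frame counts. Each of them has all 7 CDR3 bases of its J segment. The class rule leaves 1 remainder open to in-frame lengths and 2 to out-of-frame lengths, so the spread over lengths is partly set by the rule. Of the out-of-frame counts, 23.4% ± 0.602 were at 25 bases, 23.7% ± 0.744 at 26, 18.3% ± 1.13 at 28 and 15.4% ± 1.22 at 29. The remainder after division by 3 was 1 for 50.1% and 2 for 49.9% of the out-of-frame counts, with an SD of 1.23 for both.

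In-frame joins held 69.9%, 65.4%, 63.6%, 66.1% and 61.3% of the counts of replicates 1 to 5. In counts, the in-frame class ran from 7141 to 16833 per sample and the out-of-frame class from 4401 to 7846. Counted once each, distinct combinations of V, J and CDR3 (clonotypes) fell almost evenly, 48.9% ± 1.49 in-frame and 48.6% ± 1.76 out-of-frame. An in-frame clonotype thus had more counts on average than an out-of-frame clonotype. Those found in only 1 of the 5 samples did not follow this. The 5652 such in-frame clonotypes held 6984 counts, and the 5428 such out-of-frame clonotypes held 7437. Over all clonotypes, the counts per clonotype were 4.84, 4.69, 6.49, 5.13 and 4.94 in-frame and 2.18, 2.27, 3.47, 2.74 and 2.99 out-of-frame. The classes did not overlap and the difference was 2.49 ± 0.397, higher in-frame in 5 of 5 samples (two-sided exact sign-flip p = 0.062, the smallest that 5 pairs can give). Transcript amounts per cell and numbers of cells cannot be told apart in these counts.

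J usage leaned the same way in all 5 samples for every J segment. J1 and J2, the upstream segments, held a larger part of the in-frame joins, and J4 and J5, the downstream segments, held a larger part of the out-of-frame joins. The segments lie in the order J1 to J5 on chromosome 6 of the build GRCm38 (mm10), from 70722562 to 70723927, and J3 is known to be nonfunctional in the mouse. The share of J5 was 35.4%, 37.1%, 36.7%, 35.3% and 36.4% in-frame, and 46%, 46.5%, 44.3%, 42.4% and 44.5% out-of-frame. No out-of-frame value was as low as any in-frame value, and the mean difference, in-frame minus out-of-frame, was -8.56 ± 1.42 percentage points. The share of J2 was 24.1%, 23.1%, 21%, 24.4% and 22.2% in-frame, and 18.1%, 18.2%, 16.9%, 16.0% and 17.9% out-of-frame, again without overlap, a difference of 5.50 ± 1.74.

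For J1 the in-frame shares were 24.2%, 23.9%, 28.9%, 26.4% and 27.3%, and the out-of-frame shares 17.9%, 16.9%, 24.0%, 24.9% and 22.2%. The ranges overlapped between samples, but the in-frame share was higher within each sample, by 4.97 ± 2.10. For J4 the in-frame shares ran from 13.5% to 16.3% and the out-of-frame shares from 14.8% to 18.3%, overlapping between samples, with a within-sample difference of -1.88 ± 0.707. J3 had 17 counts in each class over all samples and is named again only among the processing alternatives. With 5 pairs the exact sign-flip test cannot go below 0.062, and all J segments had that p-value, also after Benjamini-Hochberg adjustment over the 5 segments. No J segment therefore passed 0.05. The mean differences of J1, J2, J4 and J5 were 6.65, 5.41, -2.03 and -9.99 in replicates 1 and 2 and 3.85, 5.56, -1.78 and -7.61 in replicates 3 to 5. J4 and J5 together held 50.9% ± 1.47 of in-frame and 61.4% ± 2.79 of out-of-frame joins (difference -10.4 ± 1.48, lower in-frame in 5 of 5 samples, exact p = 0.062).

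**Figure D1:**
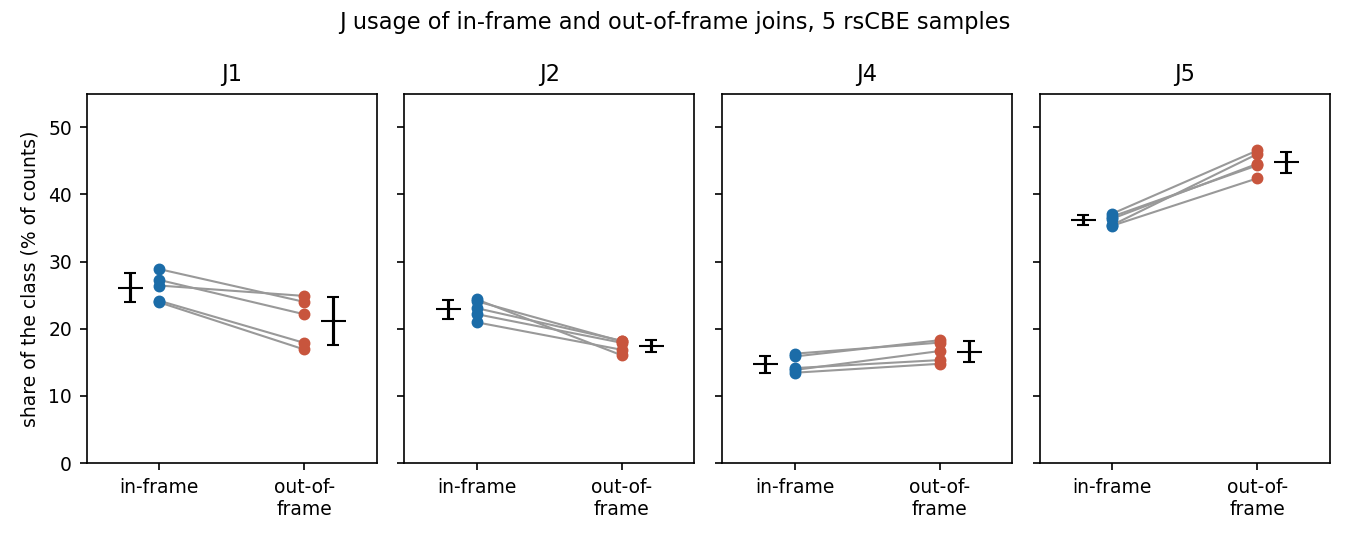
Share of each J segment (y axis, % of the counts of the class) in in-frame (blue) and out-of-frame (red) joins, with each grey line joining the classes of 1 of the 5 rsCBE samples and black marks giving mean and SD. The J5 points lie between 35.3 and 37.1% in-frame and between 42.4 and 46.5% out-of-frame.

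Seen from the J segments, 70.6% ± 4.16 of J1 joins and 71.7% ± 4.05 of J2 joins were in-frame, against 63.2% ± 3.25 of J4 and 61.0% ± 3.01 of J5 joins. In replicate 1, which had the highest in-frame share, these values were 76.5%, 76.2%, 68.6% and 65.0%. In replicate 5, which had the lowest, they were 66.6%, 66.8%, 59.9% and 57.0%.

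The out-of-frame class was not uniform in its J usage. Splitting it by the length remainder, a division chosen after seeing the data, gave a J5 share of 52.0%, 52.8%, 53.3%, 48.2% and 52.2% at remainder 1 and of 39.7%, 39.9%, 35.8%, 36.8% and 36.8% at remainder 2. The J1 share was 10.7%, 10.4%, 15.2%, 16.7% and 11.9% at remainder 1 and 25.4%, 23.9%, 32.4%, 32.8% and 32.4% at remainder 2. Neither pair of ranges overlapped. The in-frame shares of J1 lay between those at the 2 remainders on average, at 26.1%, against means of 13.0% and 29.4%. Compared with remainder 2 alone, the J1 difference therefore turned, to -3.25 percentage points (exact sign-flip adjusted p = 0.3125). The J5 difference shrank to -1.62 and the J4 difference to -0.321 (exact sign-flip adjusted p = 0.3125 and 0.625). In replicate 3 the J5 share was higher in-frame, at 36.7%, than at remainder 2, at 35.8%. The J4 share was higher in-frame than at remainder 2 in replicates 1 and 5. Compared with remainder 1 alone, the J1 difference was 13.2 and the J5 difference -15.5. J2 kept its size, with out-of-frame shares of 17.1% ± 0.923 and 17.7% ± 1.50 at remainders 1 and 2, and J4 had 18.2% ± 1.81 and 15% ± 1.45.

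**Figure D2:**
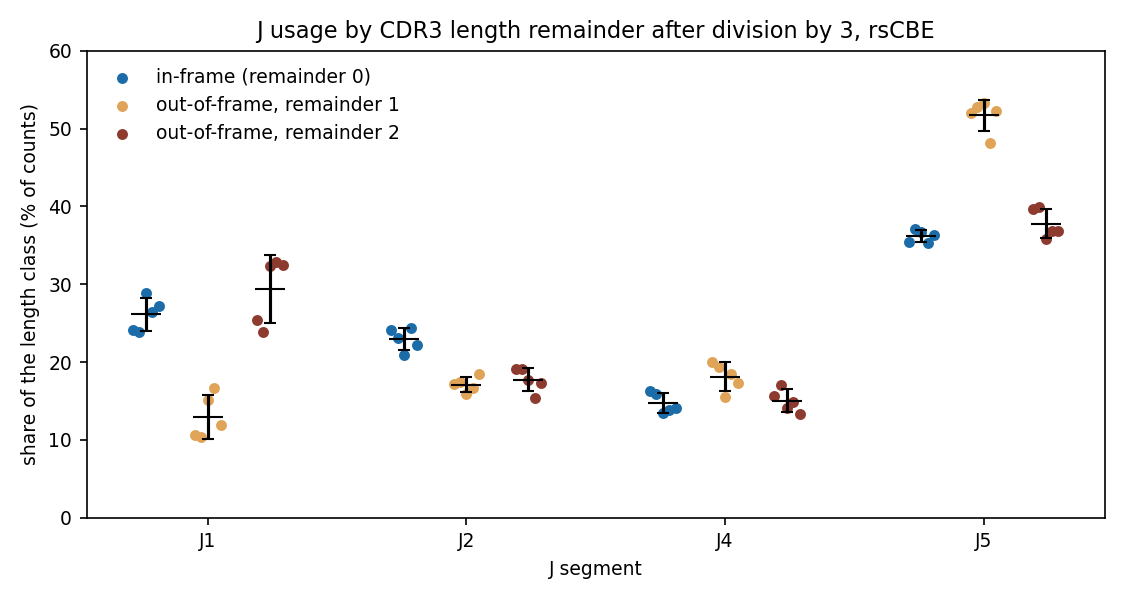
Share of each J segment (y axis, % of the counts of the length class) among in-frame joins and among out-of-frame joins whose CDR3 length leaves remainder 1 or 2 after division by 3, with 1 point per rsCBE sample and black marks giving mean and SD. J1 and J5 move in opposite directions between the remainders, with J5 means of 51.7 and 37.8% and J1 means of 13.0 and 29.4%.

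The joints behind these lengths were read from the 49 V segments whose germline CDR3 part has 23 bases and ends in cctcc. Joins to them that kept at least 18 of these bases were 44.5% of the counts of both classes. Joints are given from base 19 on, and because they are tied to length, which defines the classes, their shares are a description without a test. Among in-frame J5 joins of this set, ccgctcacg, the V end trimmed to cc and the whole J5 start, held 63.4% ± 2.77 (SD, n = 5). Among out-of-frame J5 joins, cctcacg, whose bases ctc are present at both germline ends, held 41.6% ± 2.37 and has length remainder 1. The joint cctcacg was also the leading out-of-frame joint of J4, with 22.5% ± 2.61, since J4 and J5 share their last bases. Among out-of-frame J1 joins the leading joint was cctggacg, with 30.6% ± 0.928, which has remainder 2. In-frame J1 joins were led by ccgtggacg, with 52.2% ± 2.23, followed by cctcggacg, with 25.6% ± 2.72. In-frame J2 and J4 joins were each dominated by 1 joint, ccgtacacg with 77.6% ± 2.51 and ccattcacg with 81.8% ± 2.15. The leading out-of-frame joint of J2, cctacacg, held 18.3% ± 3.30.

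Over all V segments with a germline end, only joins whose first 10 CDR3 bases matched the germline were read next. These were 96.5% ± 0.809 of in-frame and 95.0% ± 1.89 of out-of-frame counts. Among them, joints with at least 1 base that both germline ends could have supplied made up 20.8% ± 0.743 of in-frame and 40.2% ± 0.509 of out-of-frame counts. With at least 3 such bases, the shares were 1.46% ± 0.201 and 12.3% ± 0.680. The whole J start was kept in 51.0% ± 1.44 of in-frame and 34.0% ± 1.18 of out-of-frame counts. Restricted to joints with no such base, also a choice made after seeing the data, the J1 shares were 30.3% ± 2.54 and 25.5% ± 4.69 in-frame and out-of-frame, and the J2 shares 23.7% ± 1.61 and 15.1% ± 0.819. The J4 shares were 14.1% ± 1.47 and 15.9% ± 2.01, and the J5 shares 31.8% ± 0.933 and 43.4% ± 2.76. The J5 difference was -11.6 ± 2.45 there, lower in-frame in 5 of 5 samples. Since the restriction removes different parts of the 2 classes, these shares too are a description without a test.

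Of 114 V segments seen in rsCBE, 87 had enough counts to be tested and 30 differed in their share between the classes (34.5%, edgeR quasi-likelihood test paired within samples, adjusted p under 0.05). Of these, 13 were higher in-frame (14.9%) and 17 higher out-of-frame (19.5%). The sign was the same in all 5 samples for 26 of the 30, and 11 of the 30 did not overlap between classes. At an unadjusted p under 0.05 there were 38 (43.7%). The median log2 fold change over all 87, in-frame over out-of-frame, was 0.12. When each clonotype was counted once, only 8 of 65 tested V segments differed. Of the 30, 25 were tested then, and all 25 had the sign they had in the counts. Some of them shrank strongly, Igkv12-46 from 0.43 to 0.00035 (edgeR adjusted p = 0.999) and Igkv8-27 from 0.30 to 0.065 (0.730). The 8 called were Igkv5-43, Igkv4-92, Igkv4-73, Igkv6-15, Igkv6-23, Igkv6-32, Igkv14-126 and Igkv1-135. Replicates 1 and 2, deposited as single libraries, gave 27 called segments, and replicates 3 to 5, deposited in parts, gave 11, while all 30 had the same sign in both subsets. Against each length remainder of the out-of-frame class alone, the split chosen after seeing the data, all 30 had the same sign as well. However, 26 of them were called against remainder 1, 16 against remainder 2 and 14 against both. Among the calls lost against remainder 2 were Igkv12-40, with a log2 fold change of -0.07 (edgeR adjusted p = 0.918), Igkv4-53, with 0.22 (0.466), and Igkv12-89, with 0.31 (0.465).

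**Figure D3:**
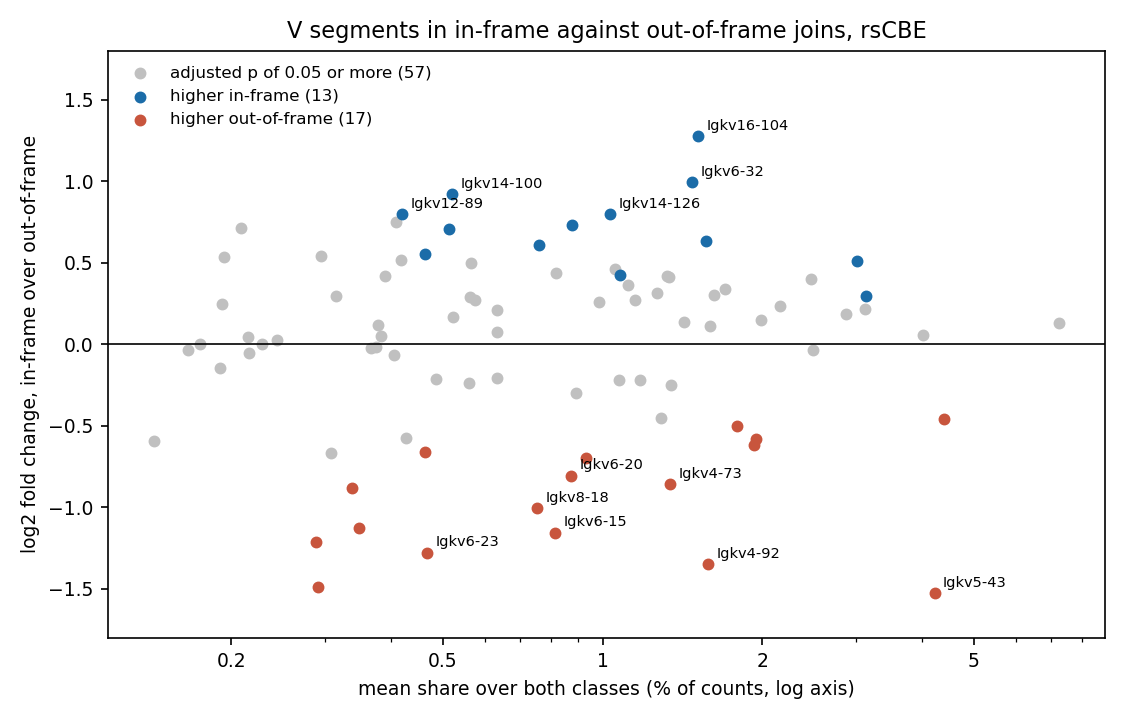
Log2 fold change of the V share, in-frame over out-of-frame (y axis), against the mean share over both classes (x axis, % of counts, log axis) for the 87 tested V segments in rsCBE, with colours marking the 13 called higher in-frame and the 17 called higher out-of-frame. Igkv5-43 at -1.53 and Igkv16-104 at 1.27 are the outermost points.

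Igkv5-43 differed most. This V gene lies on the minus strand of chromosome 6 at 69823355 to 69823943, opposite to the J segments, and so joins them by inversion. It held 3.05%, 3.52%, 1.70%, 1.53% and 1.26% of the in-frame joins and 8.50%, 8.74%, 4.81%, 4.31% and 4.79% of the out-of-frame joins. The classes did not overlap, although both were higher in replicates 1 and 2 than in replicates 3 to 5. The log2 fold change was -1.53 ± 0.10 (SE, edgeR adjusted p = 4.44e-07). Of all Igkv5-43 joins 40.1% ± 6.35 (SD, n = 5) were in-frame. With each clonotype counted once the log2 fold change was -0.59 (edgeR adjusted p = 0.000273). Against out-of-frame joins of remainder 1 it was -2.04, and against those of remainder 2 it was -0.71, negative in both.

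Igkv4-92, a V gene at 68755038 to 68755593 that also joins by inversion, held 0.912% ± 0.336 of in-frame and 2.25% ± 0.333 of out-of-frame joins (SD, n = 5), without overlap. Its log2 fold change was -1.35 ± 0.18 (edgeR adjusted p = 0.000301), and 42.8% ± 8.14 of its joins were in-frame. Igkv8-18, which joins by deletion, held 0.519% ± 0.220 and 0.988% ± 0.205. Its log2 fold change of -1.0 was -0.11 (edgeR adjusted p = 0.742) with each clonotype counted once. Igkv2-112 held 0.724% ± 0.253 and 1.13% ± 0.0442, and Igkv3-12 held 1.52% ± 0.557 and 2.34% ± 0.926. Both had a negative difference in all 5 samples, but neither was called with each clonotype counted once (edgeR adjusted p = 0.512 and 0.199).

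The Igkv6 family stood on the out-of-frame side. Of its 9 members 7 were tested, 5 were higher out-of-frame and 1, Igkv6-32, was higher in-frame, beside 19.5% and 14.9% of all 87 tested. The median log2 fold change of the 7 was -0.80, beside 0.12 over all tested V segments. Igkv6-15 held 0.345%, 0.302%, 0.654%, 0.595% and 0.686% in-frame and 0.958%, 0.854%, 1.05%, 1.50% and 1.20% out-of-frame, without overlap (log2 fold change -1.15 ± 0.17 SE, edgeR adjusted p = 0.000577). Igkv6-23 had 0.267% ± 0.141 and 0.667% ± 0.364, and Igkv6-20 had 0.634% ± 0.0830 and 1.11% ± 0.133. The log2 fold change of Igkv6-20 was -0.80 in the main fit. It was -0.33 with each clonotype counted once and -0.40 against remainder 2, not called in either (edgeR adjusted p = 0.182 and 0.181). Igkv6-23 was called in both settings. Igkv6-32 went the other way, with 1.78%, 1.59%, 1.97%, 2.42% and 2.03% in-frame and 0.687%, 0.867%, 1.11%, 1.20% and 1.09% out-of-frame, a log2 fold change of 0.99 ± 0.14 (edgeR adjusted p = 0.000301). Reads of near-identical family members could have been assigned to the wrong one, so shares of single members are uncertain.

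V segments annotated as pseudogenes held a larger part of the out-of-frame joins in each sample. Their summed share was 1.95%, 2.54%, 2.55%, 2.48% and 2.80% in-frame and 3.22%, 3.80%, 4.37%, 5.04% and 4.64% out-of-frame. The classes did not overlap, and the difference was -1.75 ± 0.537 percentage points, lower in-frame in 5 of 5 samples (exact sign-flip p = 0.062). Of 15 pseudogenes 7 were tested, 4 were higher out-of-frame and 0 were higher in-frame. Of the 79 tested segments annotated as genes, 13 were higher out-of-frame and 13 higher in-frame, and over all 87 the shares were 19.5% and 14.9%. The pseudogenes' median log2 fold change was -0.67, beside 0.17 for the genes. Igkv4-73, the most used, held 0.952% ± 0.191 in-frame and 1.73% ± 0.248 out-of-frame (log2 fold change -0.86 ± 0.14 SE, edgeR adjusted p = 0.0011). Igkv4-77 held 0.359% ± 0.190 and 0.569% ± 0.298, Igkv12-40 held 0.237% ± 0.0163 and 0.439% ± 0.127, and Igkv11-106 held 0.173% ± 0.0941 and 0.405% ± 0.215. The call of Igkv4-77 was lost without replicate 1 or replicate 4 (edgeR adjusted p up to 0.0544). It was also lost against remainder 1 alone (log2 fold change -0.39, edgeR adjusted p = 0.319) and with each clonotype counted once (-0.26, 0.488). Against remainder 2 alone, Igkv11-106 (-0.90, edgeR adjusted p = 0.192) and Igkv12-40 (-0.07, 0.918) were not called. Igkv4-73 was called in each of these settings. Pseudogene joins with an intact CDR3 were still counted as in-frame, since the class was read from the CDR3 alone.

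Higher in-frame, Igkv16-104 came first. It is a V gene on the plus strand at 68425575 to 68426072, on the strand of the J segments, and joins by deletion. It held 2.55%, 2.51%, 1.63%, 2.18% and 1.85% of in-frame joins and 1.19%, 1.20%, 0.878%, 0.726% and 0.432% of out-of-frame joins. The classes did not overlap, and the log2 fold change was 1.27 ± 0.17 (SE, edgeR adjusted p = 0.000301). Of its joins 82.8% ± 4.28 (SD, n = 5) were in-frame. With each clonotype counted once its log2 fold change was 0.30 (edgeR adjusted p = 0.184), beside the single joint shown above that held most of its in-frame counts with J1.

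The Igkv14 family had 5 tested members with a median log2 fold change of 0.46, beside 0.12 over all 87. Of these, 2 were called higher in-frame, beside 14.9% of all tested, and 2 of the others were near zero, at 0.03 and, for Igkv14-87-2, 0.0011. Igkv14-126 held 1.31% ± 0.246 in-frame and 0.756% ± 0.204 out-of-frame (log2 fold change 0.80 ± 0.16 SE, edgeR adjusted p = 0.00292), and Igkv14-100 held 0.684% ± 0.0978 and 0.359% ± 0.167. In the Igkv12 family 3 of 7 tested members were higher in-frame (14.9% over all) and 1, the pseudogene Igkv12-40, was higher out-of-frame (19.5% over all). Of the 3, Igkv12-46 was at 0.00035 with each clonotype counted once (edgeR adjusted p = 0.999). Igkv12-89 held 0.532% ± 0.179 and 0.306% ± 0.0939. Igkv3-2 and Igkv3-1, the V segments next to the J segments, held 1.90% ± 0.443 and 0.549% ± 0.111 in-frame against 1.23% ± 0.376 and 0.378% ± 0.108 out-of-frame. Igkv4-53, Igkv10-94 and Igkv9-120 completed the list of named segments higher in-frame, with log2 fold changes of 0.73, 0.61 and 0.51. With each clonotype counted once, Igkv9-120 was at 0.12 (edgeR adjusted p = 0.512) and Igkv3-2 at 0.11 (0.629), both well below their values in counts. Igkv4-53, Igkv10-94 and Igkv14-100 were at 0.41, 0.33 and 0.35 and not called (edgeR adjusted p = 0.103, 0.191 and 0.268). Igkv3-1 was not called either (0.142), although its log2 fold change of 0.49 was close to the 0.55 in counts. Leaving out 1 replicate ended the call of Igkv14-100 (without replicate 1, edgeR adjusted p = 0.0783) and of Igkv3-1 (without replicate 1, 2, 3 or 4, up to 0.105).

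**Figure D4:**
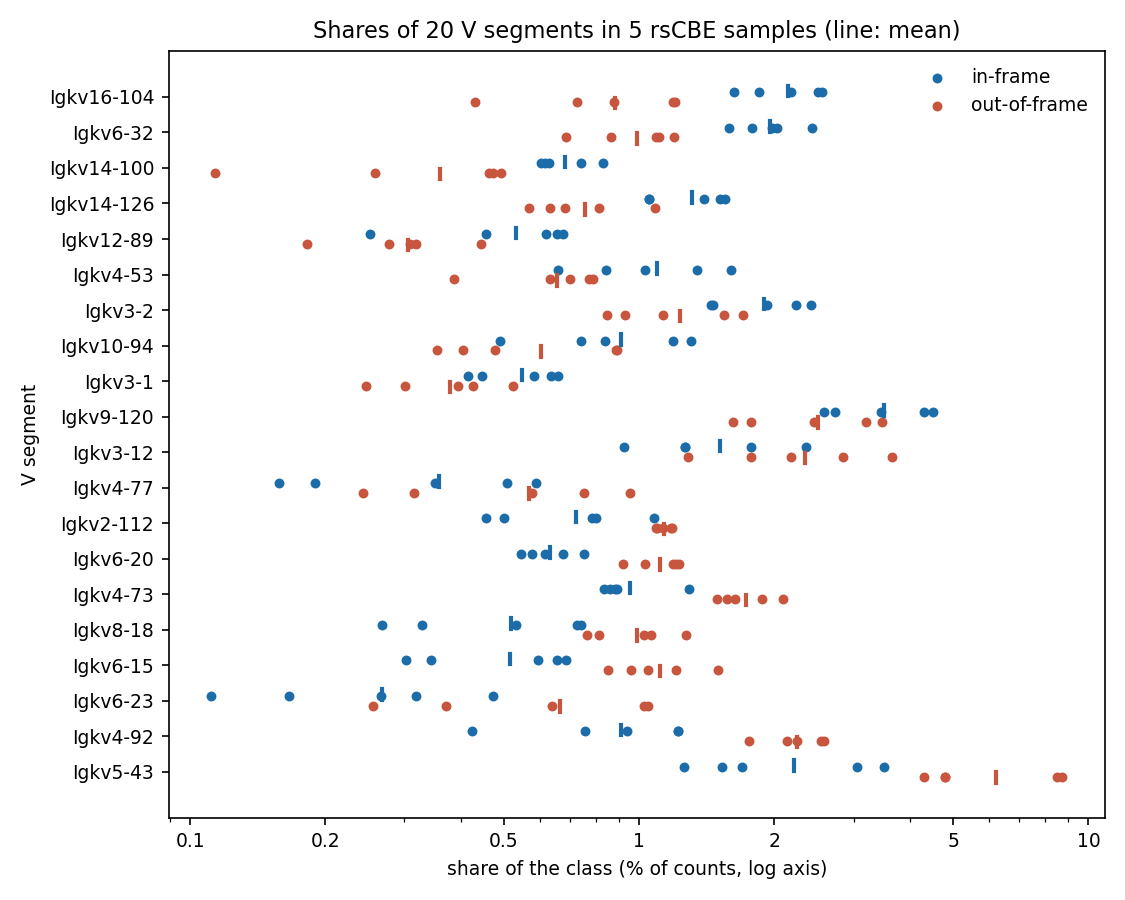
Share (x axis, % of the counts of the class, log axis) of the 20 V segments named by their size of difference, 10 in each direction, in the in-frame (blue) and out-of-frame (red) joins of the 5 rsCBE samples, with a vertical line at each mean. Igkv16-104, Igkv6-32 and Igkv14-100 at the top and Igkv5-43 and Igkv4-92 at the bottom have no overlap between the classes. Igkv6-23, in the row above Igkv4-92, does overlap, and Igkv6-15 above Igkv6-23 does not.

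Of the 5 most used V segments, Igkv8-16 held 7.69% ± 4.68 of in-frame and 6.81% ± 3.98 of out-of-frame joins and did not pass the test (log2 fold change 0.13 ± 0.09 SE, edgeR adjusted p = 0.237). Igkv19-93 held 4.10% ± 1.07 and 3.94% ± 0.906 (log2 fold change 0.05, edgeR adjusted p = 0.644). The latter was higher in-frame against remainder 1 (0.41) and lower against remainder 2 (-0.23). Igkv1-135, a far distal segment, was higher out-of-frame, with 3.69% ± 2.22 and 5.09% ± 3.05 (log2 fold change -0.46 ± 0.08 SE, edgeR adjusted p = 0.00151). Against remainder 1 alone Igkv1-135 was at -0.14 and not called (edgeR adjusted p = 0.447), against remainder 2 it was at -0.72, and in replicates 1 and 2 alone it was at -0.42 with an adjusted p of 0.051. Igkv8-27 was higher in-frame, with 3.46% ± 0.476 and 2.82% ± 0.308 (log2 fold change 0.30, edgeR adjusted p = 0.0367), in 4 of 5 samples, but not without replicate 1, 2, 3 or 4 (adjusted p up to 0.174). Against remainder 1 it was at 0.61 (edgeR adjusted p = 0.0085). Against remainder 2 and with each clonotype counted once it was at 0.065 and not called (edgeR adjusted p = 0.698 and 0.730).

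The shares of broad positions along the locus overlapped between the classes. Proximal V segments (numbers 1 to 45) held 41.4% ± 4.32 of in-frame and 44.7% ± 1.38 of out-of-frame joins (difference -3.31 ± 3.28, exact sign-flip p = 0.1875). Distal segments (91 and above) held 39.1% ± 5.04 and 36.1% ± 1.73 (3.01 ± 3.39, exact p = 0.25), and middle segments 19.5% ± 0.985 and 19.2% ± 1.37 (exact p = 0.4375). The distal difference was 6.66 and 5.30 in replicates 1 and 2 and -0.943, -0.191 and 4.21 in replicates 3 to 5. Segments that join by inversion held 57.9% ± 3.37 in-frame and 61.0% ± 1.19 out-of-frame (exact p = 0.125). The Shannon entropy of V usage, a measure of its evenness, was 5.87 ± 0.0199 and 5.85 ± 0.0125 bits (exact p = 0.25). Of 30 proximal, 29 middle and 28 distal V segments tested, 5, 3 and 5 were higher in-frame (14.9% over all 87) and 11, 2 and 4 were higher out-of-frame (19.5% over all).

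Among V-J pairs, 67 of 194 tested differed between the classes (34.5%, edgeR adjusted p under 0.05), 37 higher in-frame (19.1%) and 30 higher out-of-frame (15.5%). They divided by J segment. With J1, 16 pairs were higher in-frame and 2 higher out-of-frame of 40 tested, and with J2 16 and 3 of 46. With J4 there were 3 and 6 of 40, and with J5 2 and 19 of 68. The median log2 fold changes were 0.54, 0.50, -0.03 and -0.28 in that order, beside 0.12 over all pairs. These pair counts contain the J differences given above and are not separate from them. Without replicate 1, 35 pairs were called. Replicates 3 to 5 alone gave 11, and counting each clonotype once gave 12 of 46 tested. Against remainder 2 alone there were 16 of 153.

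Igkv5-43 with J5 was the pair higher out-of-frame with the most counts. It held 1.50%, 1.90%, 0.732%, 0.754% and 0.756% in-frame and 5.04%, 5.52%, 3.13%, 2.41% and 3.16% out-of-frame (log2 fold change -1.81 ± 0.10 SE, edgeR adjusted p = 9.97e-09), without overlap. Igkv18-36 with J5 (-2.03), Igkv4-92 with J2 (-2.02), Igkv11-106 with J5 (-1.77) and Igkv5-43 with J1 (-1.59) were the other named pairs on that side. The pair Igkv4-92 with J2 stood against the general J2 direction.

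Igkv16-104 with J1 held 0.956%, 0.931%, 0.577%, 0.648% and 0.70% in-frame and 0.272%, 0.319%, 0.169%, 0.0641% and 0.159% out-of-frame (log2 fold change 1.96 ± 0.27 SE, edgeR adjusted p = 0.00024), without overlap. Igkv16-104 with J2 had a log2 fold change of 2.23 ± 0.40, with 423 in-frame and 47 out-of-frame counts. Igkv14-126 with J2 (2.22), Igkv12-41 with J1 (2.02) and Igkv4-53 with J4 (2.01) rest on 16, 30 and 26 out-of-frame counts. Without replicate 1 the pair Igkv14-126 with J2 was not called (edgeR adjusted p = 0.0521).

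In-frame joins were shared between samples in more of their counts. Of 7565 distinct in-frame clonotypes, 452 were found in all 5 rsCBE samples and held 69.2% of the in-frame counts. Of 7586 distinct out-of-frame clonotypes, 256 were found in all 5 and held 33.2% of the out-of-frame counts. Clonotypes found in 1 sample were 74.7% of the in-frame and 71.6% of the out-of-frame clonotypes. Out-of-frame joins had fewer counts, which also limits how many samples a clonotype can be found in, and the part of depth in this difference was not tested.

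Set beside WT, the class differences of the J segments had the same signs on average. The J5 difference was -4.88 ± 3.98 percentage points in the WT samples and -8.56 ± 1.42 in the rsCBE samples (SD over 5 samples). The difference between genotypes, -3.68, did not pass the exact permutation test (p = 0.0794, adjusted p = 0.397 over the 5 J segments). For J1 the class difference was 3.27 ± 4.09 in WT and 4.97 ± 2.10 in rsCBE, and for J2 it was 3.82 ± 1.93 and 5.50 ± 1.74 (exact permutation adjusted p = 0.794 and 0.536). WT replicate 4, which had 3109 counts in all, had the J5 difference farthest from zero in WT, at -12.0. For J4 and J5 together the genotype difference was -3.35 (exact permutation p = 0.198). Without WT replicate 4, an omission chosen after seeing the data, the genotype difference for J5 was -5.45 (exact permutation adjusted p = 0.0397) and that for J4 and J5 together -5.17 (exact permutation p = 0.00794). Without WT replicate 5 the latter was -1.86 (exact permutation p = 0.405). The pseudogene difference was -1.95 ± 0.555 in WT and -1.75 ± 0.537 in rsCBE (exact permutation p = 0.587).

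**Figure D5:**
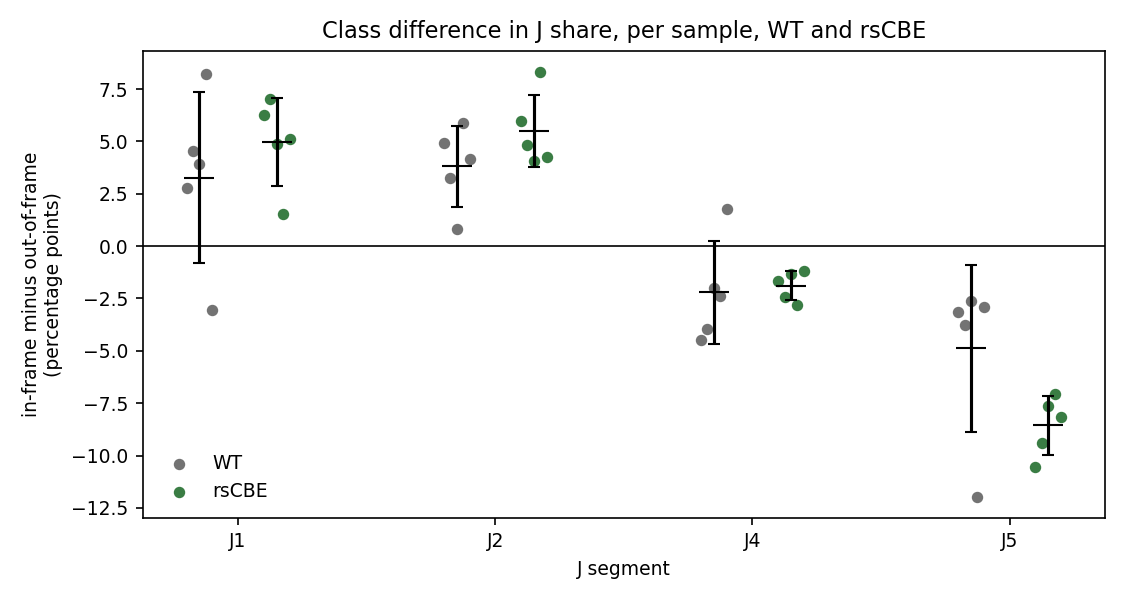
In-frame minus out-of-frame share (y axis, percentage points) of each J segment in the WT (grey) and rsCBE (green) samples, with 1 point per sample and black marks giving mean and SD. The lowest WT point for J5, at -12.0, is replicate 4, and the 5 rsCBE points lie between -10.6 and -7.04.

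Within each class, rsCBE differed from WT in J usage. In-frame, J5 held 36.2% ± 0.785 in rsCBE and 27.1% ± 3.21 in WT, and J1 26.1% ± 2.10 and 32.3% ± 1.76 (exact permutation adjusted p = 0.0198 for both). Out-of-frame, J5 held 44.7% ± 1.62 and 32.0% ± 6.48, J1 21.2% ± 3.59 and 29.0% ± 5.0, and J2 17.4% ± 0.942 and 21.6% ± 3.03 (exact permutation adjusted p = 0.0397 for each). Blocked by replicate number, the exact sign-flip adjusted p was 0.104 in-frame and 0.208 out-of-frame, a test that cannot go below 0.062 before adjustment. For out-of-frame J1 and J5 the unadjusted sign-flip p was 0.125, above that floor. In the samples numbered 4 these shares went the other way, with J1 at 24.9% in rsCBE and 22.2% in WT and J5 at 42.4% and 42.9%. The out-of-frame calls of J2 and J5 were lost without each of the rsCBE replicates in turn (exact permutation adjusted p up to 0.0926). That of J1 was lost in 9 of 10 such fits, all but the one without WT replicate 4 (up to 0.106). In WT, J1 was at 19.6% ± 2.12 and 38.1% ± 7.39 at remainders 1 and 2, with ranges of 17.7 to 22.8% and 27.7 to 47.8% that did not overlap. J5 was at 37.3% ± 6.39 and 27.0% ± 7.86, with ranges of 31.0 to 44.8% and 21.9 to 40.7% that did overlap.

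For V segments, 11 of 81 tested differed between the classes in WT (13.6%, edgeR adjusted p under 0.05), and all 11 were among the 30 of rsCBE. Igkv5-43 held 2.14% in-frame and 5.77% out-of-frame in WT (log2 fold change -1.50, edgeR adjusted p = 3.41e-12), and Igkv6-32 held 2.22% and 1.24% (0.86, adjusted p = 0.0284). Igkv16-104 held 1.86% and 1.16% in WT and did not pass (0.74, edgeR adjusted p = 0.0965). The class difference itself differed between genotypes for 0 of 92 V segments (0%) by edgeR after adjustment, with 5 (5.43%) at an unadjusted p under 0.05. For V-J pairs it did so for 0 of 230, with 9 (3.91%) at an unadjusted p under 0.05, and in WT 4 of 154 pairs differed between the classes (2.6%). For Igkv16-104 that difference was 0.51 ± 0.35 (SE, edgeR adjusted p = 0.85) and for Igkv5-43 it was -0.06 ± 0.21 (adjusted p = 0.977). WT had fewer counts, 70244 in all, so its fewer calls do not show a smaller difference.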

How the data were processed

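The authors deposited 1 table of whole-number counts, without normalization, of each V, J and CDR3 combination in 16 libraries, per the file headers. Per the labels' protocols, RNA of sorted pre-B cells was amplified and sequenced as paired reads. The submitters' processing notes name the build mm10. The V caller and the nature of a count (reads or molecules) are not given in the sources used here, so no interval is read from counts. Replicates 3 to 5 came as 2 parts, which were added. These are called batch 2 and replicates 1 and 2 batch 1, from the structure of the table. Names of 112 of 114 V segments matched GENCODE M21 (GRCm38, coordinates from 1).

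J shares and V summaries were compared by exact sign-flip tests over 5 pairs, and with WT by exact permutation over 10 samples. V and V-J counts were tested with edgeR 4.0.16 (R 4.3.3) with sample and class as terms, library size equal to the class total, filterByExpr (minimum 10 counts, 15 in total) and Benjamini-Hochberg adjustment at 0.05. DESeq2 1.42.0 was an alternative. On simulated data with a log2 fold change of 1, 94.1% of changed V segments among 87 and 76.9% of changed pairs among 194 were recovered. Named V segments had an adjusted p under 0.05, 1 sign in 5 samples and a mean share of 0.5% in a class, the 10 largest each way, plus the 5 most used. Pairs needed 0.2%, 5 each way. Members and lists were chosen with earlier results of these data known. Deviations in V usage of same-numbered WT and rsCBE samples had correlations of 0.541 to 0.916 in-frame and 0.305 to 0.900 out-of-frame over 113 V segments. The same number was the best match for only 2 of 5 samples in-frame and 1 of 5 out-of-frame, so the pairing is uncertain, and values blocked by replicate number are given where they change a call.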

Additional observations from a re-analysis of the deposited data

Results flagged for a closer look

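Of 87 groups of 5 samples examined, 2 held a sample far from the other 4 by Dixon's criterion, against about 4.35 that chance would give. In-frame counts per clonotype were 6.49 in rsCBE replicate 3 and between 4.69 and 5.13 in the other 4 samples. Igkv4-73, an annotated pseudogene, held 1.29% of the in-frame joins of replicate 2 and between 0.835 and 0.891% of those of the other 4 samples.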

How the results depend on the processing

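In rsCBE, the signs of the mean differences of J2, J4, J5 and the pseudogene share held under every alternative run on them. For J4 and J5 they did not hold in every sample against remainder 2 alone, with mean differences of -0.321 and -1.62. Without the replicate block, that is unpaired, the exact permutation tests passed for J2 (5.50), J5 (-8.56), J4 with J5 (-10.4), pseudogenes (-1.75) and counts per clonotype (2.49), while edgeR called only 8 V segments and 33 pairs. Counting each clonotype once gave 8 V segments and 12 pairs, and turned J3 (0.0278), Igkv19-93 (-0.047) and Igkv8-16 (-0.15). Batch 2 alone gave 11 V segments and 11 pairs, and Igkv19-93 at -0.0012. Igkv19-93 was -0.021 without clonotypes of 1 count. Against out-of-frame joins of remainder 2 alone, an alternative chosen after seeing the data, 16 pairs were called, and J1 (-3.25), proximal (0.280) and middle V (-1.44) and Igkv19-93 (-0.23) turned. Leaving out 1 replicate gave 35 to 66 pairs, the lowest without replicate 1, and 23 to 30 V segments. DESeq2 called 27 V segments and 67 pairs, TMM 29 and 66, and no filter 28 and 63.

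For the class difference between genotypes, leaving out 1 sample (also chosen after seeing the data) gave ranges of -5.45 to -3.11 for J5, -5.17 to -1.86 for J4 with J5, -0.250 to 1.32 for J4, -0.0569 to 0.0391 for J3, 0.107 to 2.92 for J1, 0.935 to 2.20 for J2, -2.87 to -0.977 for proximal, 0.114 to 1.31 for middle and 0.501 to 2.41 for distal V, 0.0592 to 0.422 for pseudogene V, -1.70 to 0.922 for inversional V, -0.0458 to 0.0197 for entropy and -0.0168 to 0.635 for counts per clonotype. Counting each clonotype once turned J3 (0.00467) and J4 (-0.260). Within out-of-frame joins, rsCBE minus WT ranged from -9.55 to -6.16 for J1, -4.99 to -3.30 for J2, 11.3 to 15.5 for J5 and -1.60 to 0.164 for J4. Within in-frame joins the ranges were -0.0640 to 0.0219 for J3 and -0.748 to 0.0484 for J4. With the replicate block the calls for in-frame J1 (-6.16) and J5 (9.05) and out-of-frame J1 (-7.86), J2 (-4.17) and J5 (12.7) were lost, and with each clonotype once that for out-of-frame J2 (-2.42). The cause was not tested, except that 5 pairs cannot pass a sign-flip test at 0.05.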
